A study of Homo sapiens with 8 samples.

Results

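The BCL2 family was represented by 10 genes that were followed through 8 RNA-seq libraries of intestinal cell lines, chosen by their gene symbols from the 54261 genes of the count table. All 10 symbols were found. The set holds the survival members BCL2, BCL2L1, BCL2L2, MCL1 and BCL2A1, the pore-forming member BAK1, and the BH3-only members BID, BIK, BMF and PMAIP1. The genes were chosen for their known roles, and no measured value entered the rule, though earlier results of these data were known at the time.

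Total RNA was sequenced from NCM460 and HIEC6, which the labels describe as normal human intestinal epithelium, and from DLD1, HCT116 and HCT8, 3 colorectal cancer (CRC) lines, all untreated, and from the same 3 CRC lines after hypoxia. All 8 cultures were at passage 5 in DMEM with fetal bovine serum. Each line and condition was sequenced as 1 library, so that a group consisted of different cell lines (n = 2 normal, n = 3 untreated CRC, n = 3 hypoxia CRC) and its SD shows how much lines differ. The oxygen level and the duration of the hypoxia are not given in the sources used here, and no normal line was sequenced under hypoxia.

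The BCL2 family controls the mitochondrial route to apoptosis. BAK1 and its relative BAX form pores in the outer mitochondrial membrane, through which cytochrome c leaves and caspases become active. The survival members hold the pore formers in check, and the BH3-only members, which carry a single short homology domain, bind the survival members or activate the pore formers directly. Intestinal epithelium and its tumors are known to rely strongly on BCL2L1 and MCL1, while BCL2A1 is mainly a gene of blood cells. The proteins are also regulated by cleavage, phosphorylation and degradation, which RNA counts do not show, and counts per gene do not separate splice forms such as the long and short forms of BCL2L1.

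Total counts ran from 45519306 in HCT8 under hypoxia to 57374239 in DLD1 under hypoxia, so that 3 counts, taken as the floor, stood for 0.0523 to 0.0659 CPM (each count divided by its library total and multiplied by 1000000). The untreated and the hypoxia CRC libraries share no run label, so run and treatment cannot be told apart. All 8 genes of a hypoxia response list (such as CA9 and VEGFA) were higher under hypoxia in each of the 3 lines. With 1 CPM added to each value, their median log2 ratio was 1.92 (DLD1), 3.81 (HCT116) and 2.82 (HCT8). HCT116 stood apart in how many genes moved. With the same addition, 15.4% of all genes tested differed by more than 2 times in its pair, against 2.28% in DLD1 and 6.38% in HCT8. The TMM factor, which scales library totals so that most genes balance, was 0.771 for its hypoxia library and 0.988 for its untreated one, so ratios in HCT116 are higher after TMM scaling. Among the untreated libraries, that of NCM460 correlated at 0.988 with HCT116 and at 0.865 with HIEC6, the other normal line, in a Pearson correlation across genes, which are not independent replicates. By the same measure, the untreated and hypoxia libraries of 1 line correlated at 0.962 (HCT116), 0.978 (HCT8) and 0.99 (DLD1). The untreated CRC lines correlated with each other at 0.897 to 0.95. HIEC6 held 0.176 CPM of the epithelial gene EPCAM and 3.03 CPM of CDH1. The other untreated lines held at least 275 and 126 CPM. The summed level of 7 mesenchymal markers was 1413 CPM in HIEC6, of which VIM held 1223 CPM, against 12.7 to 106 CPM in those lines. FN1, COL1A1, ZEB1 and PDGFRB were also highest in HIEC6 among untreated lines. COL1A2 was lowest there (0.458 CPM), and COL3A1 (1.16 CPM) was below NCM460 (3.985 CPM). The keratins KRT8 and KRT18 of HIEC6 were at 4290 and 3725 CPM. The extraction label names a brain tissue, and 6 neural markers summed to 13.4 to 279.4 CPM. Most of this was MBP, at 10.8 to 117.5 CPM in every library, and SYT1, at 68.8 to 159.4 CPM in NCM460 and both HCT116 libraries and at most 1.43 CPM elsewhere, while GFAP had 0 to 5 counts and SNAP25 0 to 51. Their part in the members' values was not tested.

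The promoters of 3 members are shown because these genes had the largest fitted log2 fold changes between hypoxia and untreated cells. The sequences are the 250 bases before a RefSeq transcription start (GRCh38.p14), written 5′ to 3′ on the strand of the gene, and capitals mark ACGTG or GCGTG on either strand, the core letters that hypoxia-inducible factors are known to bind. BMF lies at chr15:40108880-40109129 on the minus strand, BCL2 at chr18:63319770-63320019 on the minus strand and PMAIP1 at chr18:59899746-59899995 on the plus strand.
BMF: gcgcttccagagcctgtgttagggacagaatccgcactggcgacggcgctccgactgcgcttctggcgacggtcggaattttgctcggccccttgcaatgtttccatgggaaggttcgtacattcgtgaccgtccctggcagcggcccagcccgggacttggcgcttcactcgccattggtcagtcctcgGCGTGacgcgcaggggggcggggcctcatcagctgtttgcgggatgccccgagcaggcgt
BCL2: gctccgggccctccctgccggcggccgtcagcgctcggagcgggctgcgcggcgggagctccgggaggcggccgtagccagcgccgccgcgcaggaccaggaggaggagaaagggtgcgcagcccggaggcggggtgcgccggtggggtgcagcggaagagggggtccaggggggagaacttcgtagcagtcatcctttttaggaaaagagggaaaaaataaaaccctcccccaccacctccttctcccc
PMAIP1: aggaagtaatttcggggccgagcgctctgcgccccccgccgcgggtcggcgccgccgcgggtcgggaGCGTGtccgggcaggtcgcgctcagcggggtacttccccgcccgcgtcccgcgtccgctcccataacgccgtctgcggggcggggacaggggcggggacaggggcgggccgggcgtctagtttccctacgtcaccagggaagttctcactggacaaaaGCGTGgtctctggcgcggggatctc
The BMF window held 1 match, starting 60 bases before the start site, the BCL2 window held none, and the PMAIP1 window held 2, at 183 and 25 bases. At least 1 of the motifs was present in 43.2% of 35116 promoter windows of the same length (18.5% for ACGTG and 32.2% for GCGTG, both strands). RefSeq gave windows for 7 of the 10 members, 13 in all, and BMF has a second window with no match. A match describes the letters only, and binding was not measured.

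BCL2L1, which encodes BCL-XL, and MCL1 dominated the survival side of the family in every library. Levels of different genes were compared as CPM per kilobase of exon. On this scale BCL2L1 and MCL1 together made up 91.8% to 95.3% of the summed level of BCL2, BCL2L1, BCL2L2 and MCL1. BCL2L2, which encodes BCL-W, contributed 4.65% to 7.53%, and BCL2 itself 0.0334% to 1.73%. The balance of the leading pair differed between lines. HIEC6 was the one library with more MCL1 than BCL2L1, at a ratio of BCL2L1 to MCL1 per kilobase of 0.634. The ratio was 1.41 in NCM460, 1.34 in DLD1, 2.39 in HCT116 and 1.15 in HCT8. Under hypoxia it was higher in each line than in its untreated library, at 2.17 in DLD1, 2.70 in HCT116 and 1.45 in HCT8. These ratios have no replicate of their own, since each line and condition had 1 library. With the length of 1 canonical transcript in place of all exons, the ratios ran from 0.656 to 2.80, in the same order.

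The BH3-only members showed no such fixed order. The largest share of their summed level per kilobase belonged to PMAIP1 in NCM460 (40.6%) and HCT116 (53.2%), to BIK in DLD1 (47.6%) and HCT8 (53.2%), and to BID in HIEC6 (44.8%). In NCM460, BIK followed closely with 39.7%. The summed level of these 4 members was 9.49 CPM per kilobase in HIEC6 and 31.7 to 47.4 in the other untreated lines. The shares and the sum leave out BAD, BBC3, BCL2L11 and HRK, BH3-only genes outside the set. BAD was at 26.19 CPM per kilobase in HIEC6 and 12.66 to 25.03 in the other untreated lines. BBC3 (0.681) and BCL2L11 (3.335) were lowest in HIEC6. HRK was at 0.548 in HIEC6 and 0.0333 to 1.246 in the other untreated lines. The shares and the sum given here describe the members only. BMF was the smallest contributor in every untreated library, at 0.834% to 3.99%. Its share was 2.49% untreated and 5.76% under hypoxia in DLD1, 0.897% and 5.74% in HCT116, and 2.71% and 12.5% in HCT8. With canonical transcript lengths BID (42.1%) passed BIK (40.6%) in HCT8, and the leading member of the other untreated libraries stayed first.

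**Figure D1:**
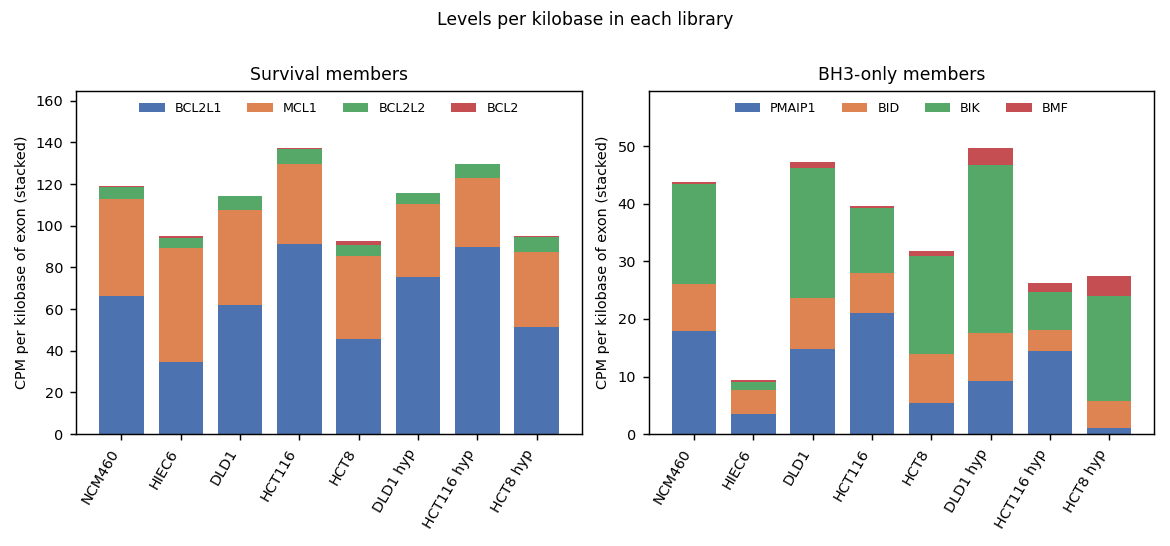
Stacked levels of 4 survival members (left) and 4 BH3-only members (right) in each of the 8 libraries, in CPM per kilobase of exon, 1 bar per library with no error bar because each line and condition has 1 library. BCL2L1 and MCL1 fill most of every left bar, and HIEC6 has the lowest right bar at 9.49 CPM per kilobase.

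The hypoxia comparison asked how the CRC lines differed after the treatment. Across 21045 genes, edgeR's quasi-likelihood test without the line as a block called no gene (0.00%) at a Benjamini-Hochberg adjusted p of 0.05, and 607 genes had an unadjusted p under 0.05; DESeq2 called 55. With the cell line as a block, which compares each line with itself, the same test called 200 genes (0.950%), 156 higher and 44 lower. Of the 10 members, 9 passed the filter of at least 10 counts in 2 libraries, each with at least 28 counts in every library. Among these 9, BMF alone passed the threshold with the block. In a bulk sample, fewer cells of a type and less RNA per cell cannot be told apart.

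BMF was the member that rose. It encodes the BCL2-modifying factor, a BH3-only protein that binds survival members, and lies on chromosome 15 from 40380091 to 40401093 on the minus strand (GRCh37, ENSG00000104081). Its level went from 6.42 to 15.6 CPM in DLD1, from 1.93 to 8.20 CPM in HCT116 and from 4.69 to 18.7 CPM in the HCT8 line. Every hypoxia library was above every untreated library, the normal lines included, which held 1.99 CPM (NCM460) and 2.06 CPM (HIEC6). The ratio of hypoxia to untreated was 2.43 in DLD1 (exact 95% counting interval 2.14 to 2.76), 4.24 in HCT116 (3.41 to 5.31) and 3.99 in HCT8 (3.46 to 4.62). The group means were 14.2 ± 5.40 CPM under hypoxia and 4.35 ± 2.265 CPM untreated (SD, n = 3 lines each). The fitted log2 fold change was 1.91 (SE 0.30, adjusted p = 0.0352, edgeR with block), and without the block it was 1.79 (SE 0.54, adjusted p = 1.0). The call depended on the HCT8 pair: without HCT8 the log2 fold change was 1.87 and the adjusted p 0.351, and the number of genes called fell from 200 to 6. Without DLD1 the adjusted p was 0.0406, and without HCT116 it was 0.00878. An exact permutation test of the 6 log2 CPM values, which ignores the pairing by line, gave a two-sided p of 0.1. That is the smallest value that 3 libraries against 3 allow, and MCL1 had it as well. Where counting ignored strand, reads of the antisense gene BMF-AS1, which shares 8.46% of the exon bases of BMF, could not be separated from it.

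BCL2 was lower in each line, at 0.270 to 0.334 times its untreated CPM. It encodes the founding survival protein of the family and lies on chromosome 18 from 60790579 to 60987361 on the minus strand (GRCh37, ENSG00000171791). Its counts were 80 untreated and 28 under hypoxia in DLD1, 342 and 98 in HCT116, and 1066 and 308 in HCT8. In CPM this was 1.56 and 0.488 in DLD1, 6.55 and 1.77 in HCT116, and 20.25 and 6.77 in HCT8. The untreated lines lay so far apart that the groups overlapped, yet each line was lower by a similar factor. The ratio of hypoxia to untreated was 0.312 in DLD1 (counting interval 0.196 to 0.486), 0.270 in HCT116 (0.214 to 0.339) and 0.334 in HCT8 (0.293 to 0.380). After TMM scaling the ratios were 0.320, 0.346 and 0.337. In the fit its log2 fold change was -1.58 (SE 0.29) with the block, and edgeR's adjusted p of 0.0569 did not pass 0.05. DESeq2 with the same block gave -1.55 (SE 0.30, adjusted p = 2.11e-05). That tool called 1666 of the 15333 genes to which it gave an adjusted p (10.9%), among them 2 members, BMF and BCL2. In edgeR with the block, the log2 fold change was -1.55 without DLD1 (adjusted p = 0.1025), -1.62 without HCT116 (0.0162) and -1.58 without HCT8 (0.5055).

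**Figure D2:**
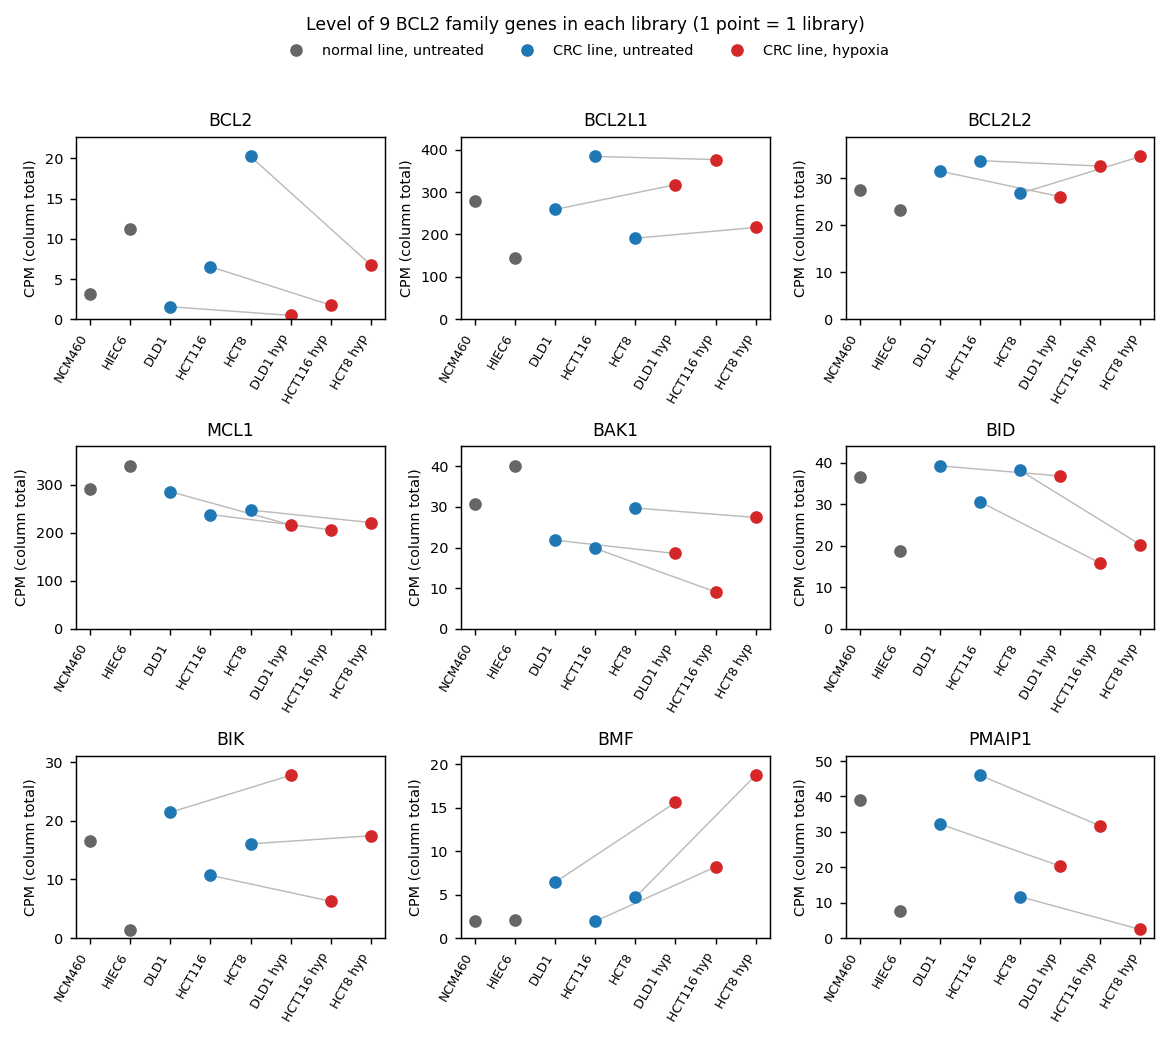
Level of 9 members in each library in CPM, on a linear axis from 0, 1 point per library (grey normal lines, blue untreated CRC lines, red hypoxia CRC lines), with grey lines joining the untreated and hypoxia libraries of a line. BMF is higher and BCL2 lower in all 3 joined pairs, and the lines differ in their starting levels.

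Among the other survival members, the direction of MCL1 and BCL2L1 in HCT116 depended on the scaling. MCL1, a short-lived survival protein (chromosome 1, 150533371 to 150552214, minus strand, GRCh37), went from 286.0 to 216.8 CPM in DLD1, from 238.4 to 206.6 in HCT116 and from 247.6 to 221.6 in HCT8. The groups of CPM values did not overlap, with ratios of 0.758, 0.866 and 0.895. After TMM scaling the ratios were 0.776, 1.11 and 0.902, so that HCT116 turned and the groups overlapped. The fitted log2 fold change was -0.12 (SE 0.18, edgeR with block, adjusted p = 0.768). In the fit without the block, the median log2 fold change of all genes was 0.06 with TMM, 0.105 with upper-quartile factors and -0.06 with library totals only. BCL2L1 (chromosome 20, 30252255 to 30311792, minus strand, GRCh37) went from 259.1 to 317.4 CPM in DLD1, from 383.9 to 376.7 in HCT116 and from 191.3 to 216.5 in HCT8. The ratios were 1.23, 0.981 and 1.13, and after TMM scaling 1.25, 1.26 and 1.14, higher in all 3 lines. Its fitted log2 fold change was 0.28 (SE 0.17, edgeR with block, adjusted p = 0.408). The lncRNA ABALON on the other strand covers 41.3% of the exon bases of BCL2L1 and held at most 112 counts in any library. The strand setting is not known, so how reads in the shared part were assigned is uncertain.

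BCL2L2 (chromosome 14, 23767999 to 23780960, plus strand, GRCh37) went from 31.5 to 26.1 CPM in DLD1, from 33.75 to 32.6 in HCT116 and from 26.8 to 34.6 in HCT8. It was lower in DLD1 and higher in HCT8 beyond counting error, and the HCT116 interval of 0.904 to 1.03 held 1, while TMM scaling moved the HCT116 ratio to 1.24. The fitted log2 fold change was 0.15 (SE 0.21, adjusted p = 0.746). The readthrough gene BCL2L2-PABPN1, which shares 16.8% of the exon bases of BCL2L2, had 0 counts in every library, so how reads in the shared part were assigned is uncertain. On the other strand, PPP1R3E shares 6.51% (at most 1191 counts over that gene) and HOMEZ 3.08% (at most 2065 counts). Where counting ignored strand, reads of these genes in the shared parts could not be separated from BCL2L2. BCL2A1, which encodes BFL-1 (chromosome 15, 80253234 to 80263538, minus strand, GRCh37), had 0 to 4 counts in every library and failed the filter, so no fold is given. Its level stayed at or near the floor in all 5 lines at this depth.

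BAK1, the pore former of the set (chromosome 6, 33540324 to 33548070, minus strand, GRCh37), went from 21.8 to 18.5 CPM in DLD1, from 19.8 to 9.08 in HCT116 and from 29.7 to 27.4 in HCT8. The ratios were 0.850, 0.459 and 0.922, so that HCT116 held the one large difference. In the fit BAK1 had a log2 fold change of -0.36 (SE 0.22, edgeR with block, adjusted p = 0.438), and -0.17 without the HCT116 pair. The pore former BAX, which is no member of the set, had ratios of 1.08, 0.627 and 1.0 in the same order.

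PMAIP1, also called NOXA, binds MCL1 and is known to speed its degradation. It lies on chromosome 18 from 57567228 to 57571537 on the plus strand (GRCh37). Its level went from 32.2 to 20.3 CPM in DLD1, from 46.0 to 31.7 in HCT116 and from 11.7 to 2.44 in HCT8. It was lower in all 3 pairs, with ratios of 0.631 (counting interval 0.585 to 0.681), 0.689 (0.648 to 0.734) and 0.208 (0.169 to 0.255). The counting interval of HCT8 lay below those of DLD1 and HCT116. The fitted log2 fold change was -0.97 (SE 0.37, edgeR with block, adjusted p = 0.218). It was -0.40 (adjusted p = 0.688) without the HCT8 pair and -1.41 (adjusted p = 0.0484) without the HCT116 pair.

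BID, which caspases of the death receptors cleave into an activator of the pore formers, lies on chromosome 22 from 18216904 to 18257536 on the minus strand (GRCh37). It went from 39.3 to 36.8 CPM in DLD1, from 30.6 to 15.8 in HCT116 and from 38.2 to 20.3 in HCT8. The ratios of HCT116 (0.518) and HCT8 (0.531) were close to each other, and that of DLD1 was 0.938 (0.882 to 0.997). Its log2 fold change in the fit was -0.52 (SE 0.22, adjusted p = 0.264). BIK, a BH3-only protein of the endoplasmic reticulum (chromosome 22, 43506756 to 43525718, plus strand, GRCh37), went from 21.4 to 27.75 CPM in DLD1, from 10.7 to 6.28 in HCT116 and from 16.1 to 17.4 in HCT8. It was higher in DLD1 (ratio 1.29, counting interval 1.20 to 1.40) and lower in HCT116 (0.587, 0.512 to 0.672), and the HCT8 interval of 0.984 to 1.20 held 1. In the fit its log2 fold change was 0.05 (SE 0.24, adjusted p = 0.941), and -0.0857 with the block and scaling by library totals.

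**Figure D3:**
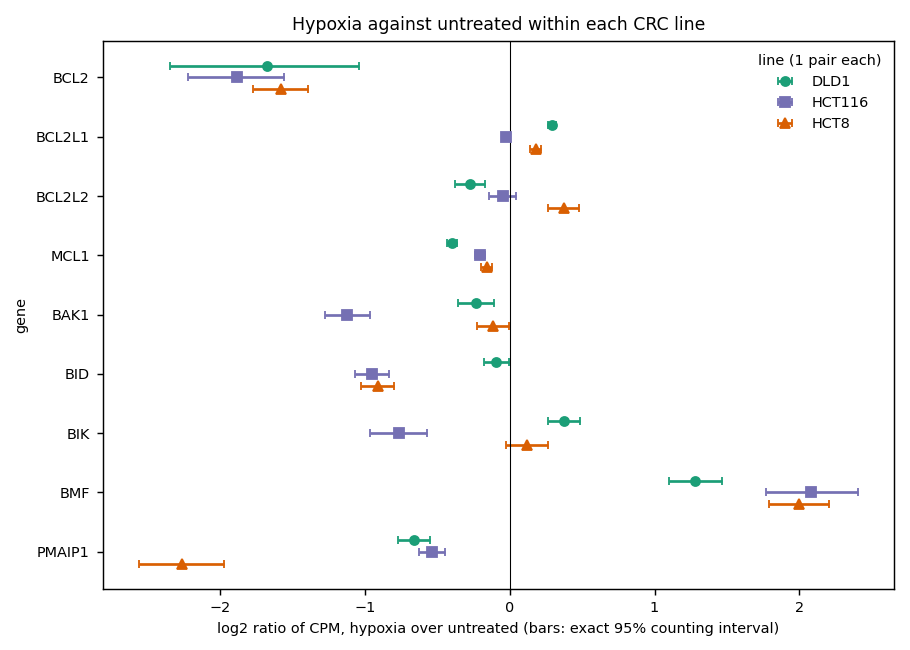
Log2 ratio of CPM, hypoxia over untreated, for 9 members in the 3 CRC lines, by library totals, 1 point per line, with exact 95% intervals that cover counting error only. BMF lies right of 0 by more than 2 times in all 3 lines, BCL2 lies left of 0 by more than 2 times in all 3, and BIK and BCL2L2 lie on different sides in different lines.

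Counted over the 9 members tested, 1 (BMF) was higher in all 3 pairs, where 16.2% of all genes tested were, and 5 (BCL2, MCL1, BAK1, BID and PMAIP1) were lower in all 3, where 26.4% of all genes were. The other 3 were mixed. After TMM scaling 2 were higher in all 3 pairs (BMF and BCL2L1; 22.4% of all genes) and 4 were lower (BCL2, BAK1, BID and PMAIP1; 21.2% of all genes). By more than 2 times in every pair, 1 member was higher (BMF; 1.93% of all genes) and 1 was lower (BCL2; 0.908% of all genes). The CPM values of the hypoxia and untreated groups did not overlap for 2 members, BMF and MCL1, against 9.50% of all genes, and after TMM scaling for BMF alone, against 9.01%. The median fitted log2 fold change of the 9 members was -0.12 with the block, beside 0.03 over all genes tested. The 4 members lower in all pairs under both scalings were the survival gene BCL2, the pore former BAK1 and the BH3-only genes BID and PMAIP1. Within single lines, 3 members were higher and 6 lower in DLD1, 1 and 8 in HCT116, and 4 and 5 in HCT8, by library totals. After TMM scaling HCT116 had 4 higher (BMF, BCL2L1, BCL2L2 and MCL1) and 5 lower, and the counts of DLD1 and HCT8 were the same. The median log2 ratio of the members, from plain CPM, was -0.54 in HCT116, -0.23 in DLD1 and -0.12 in HCT8. The median of all genes was -0.17 in HCT116 and 0 in DLD1 and HCT8, with 1 CPM added to each value. That addition draws ratios of low genes toward 0, so the medians of members and of all genes are not directly comparable. The summed mesenchymal markers were also higher under hypoxia, at 12.7 and 94.1 CPM in DLD1, 43.7 and 174.1 in HCT116 and 16.6 and 26.0 in HCT8, where 4 of the 7 (VIM, COL1A2, COL3A1 and ZEB1) were lower. The summed epithelial markers were higher as well, at 11380 and 13460 CPM in DLD1, 4769 and 5819 in HCT116 and 8594 and 14110 in HCT8. CDH1, KRT8, KRT19 and VIL1 were higher in all 3 pairs. EPCAM was lower in all 3, at 651.3 and 524.0 CPM in DLD1, 275.1 and 198.0 in HCT116 and 368.1 and 331.4 in HCT8. KRT18 was lower in DLD1 and HCT116, CDX2 in HCT116 and ESRP1 in DLD1, and KRT20 stayed under 1 CPM. With the block edgeR called 1 gene of each list, FN1 (log2 fold change 2.80, adjusted p = 0.0295) and KRT19 (1.56, adjusted p = 0.0115), both higher, and DESeq2 with the block also called COL1A1, COL1A2, PDGFRB and VIL1 higher. The part of these markers in the members' values was not tested.

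The levels of the members in the 5 untreated lines differed by up to 16.2 times. These are single libraries, so the order of the lines is a description, and neighbours in it were compared by the counting interval of their ratio. BIK ran from 1.32 CPM in HIEC6 to 21.4 CPM in DLD1, with 10.7 CPM in HCT116, 16.1 in HCT8 and 16.55 in NCM460, and HCT8 and NCM460 could not be told apart (ratio 1.03, 0.934 to 1.14). HIEC6 was 8.09 times below its nearest neighbour, HCT116. BCL2 ran over 13 times, from DLD1 at 1.56 CPM through NCM460 at 3.11, HCT116 at 6.55 and HIEC6 at 11.3 to HCT8 at 20.25 CPM, and each neighbour differed beyond counting error.

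PMAIP1 differed by 6.06 times, with 7.58 CPM in HIEC6, 11.7 in HCT8, 32.2 in DLD1, 39.0 in NCM460 and 46.0 in HCT116, in this order without overlap of neighbours. BMF differed by 3.32 times, and HCT116, NCM460 and HIEC6 at 1.93 to 2.06 CPM could not be told apart. BCL2L1 differed by 2.64 times (HIEC6 145.3, HCT116 383.9 CPM), BID by 2.09 times (HIEC6 18.8, DLD1 39.3 CPM) and BAK1 by 2.03 times (HCT116 19.8, HIEC6 40.1 CPM). BCL2L2 and MCL1 were the most even, at 1.45 and 1.43 times. HIEC6 held the lowest level of 5 members (BCL2L1, BCL2L2, BID, BIK and PMAIP1) and the highest of 2 (MCL1 and BAK1), and after TMM scaling HCT8 took the last place in BCL2L2. Since HIEC6 was also the library with little EPCAM and CDH1, these values describe that library as deposited, and the part of its missing epithelial genes was not tested.

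The comparison the study was built on sets the 3 untreated CRC lines against NCM460 and HIEC6. No gene of 19964 passed the threshold (0.00%) in edgeR's test, with 542 at an unadjusted p under 0.05, and DESeq2 called 143. No member was called by either tool. BAK1 was lower in all 3 CRC lines (19.8 to 29.7 CPM) than in both normal lines (30.7 and 40.1 CPM), with a log2 fold change of -0.79 (SE 0.35, adjusted p = 0.999). MCL1 lay at 238.4 to 286.0 CPM in the CRC lines and at 291.4 and 339.9 CPM in the normal lines (-0.49, SE 0.28, adjusted p = 0.999). These 2 of 9 members had groups that did not overlap, beside 18.2% of all genes tested, and the same 2 after TMM scaling, beside 17.1%. The gap was narrow for both, since NCM460 and HCT8 did not differ in BAK1 beyond counting error (ratio 1.03, 0.960 to 1.11), nor NCM460 and DLD1 in MCL1 (1.02, 0.995 to 1.04). An exact permutation test of 3 libraries against 2 cannot give a two-sided p below 0.2, which was the value for BAK1 and MCL1.

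For the other members the sign or the size depended on which normal line was used. BIK had a log2 fold change of 0.72 (SE 1.04) with both, 3.33 (SE 0.75, adjusted p = 0.227) without NCM460 and -0.15 (SE 0.56) without HIEC6. For PMAIP1 the values were 0.27 with both, 1.76 without NCM460 and -0.45 without HIEC6. BCL2 went from 0.10 (SE 1.18) with both to -0.57 without NCM460 and 1.45 without HIEC6. BCL2L1 (0.25) and BID (0.21) had values of 0.70 and 0.67 without NCM460, and -0.08 and -0.13 without HIEC6. BMF kept its sign at 0.90 (SE 0.74), 0.80 and 1.01, and BCL2L2 was at 0.10 (SE 0.34), 0.15 and 0.07. With 1 normal library left, that library was assumed to vary like the CRC lines. Against HCT116, the library of NCM460 held 0.475 times the BCL2, 0.724 times the BCL2L1, 1.55 times the BAK1 and 1.55 times the BIK, each beyond counting error, although the 2 libraries were alike across genes.

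**Figure D4:**
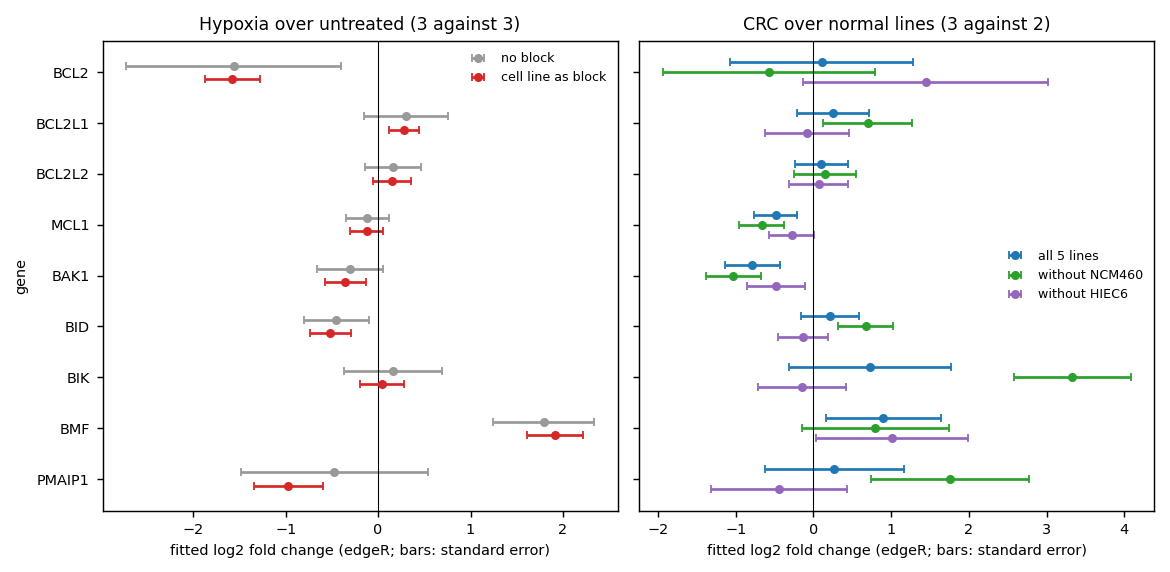
Fitted log2 fold change of 9 members from edgeR with standard errors as bars, for hypoxia over untreated (left, without and with the cell line as a block) and for CRC over normal lines (right, all 5 lines and without each normal line). The block narrows the bars on the left, with BMF at 1.91 (SE 0.30), and BIK on the right moves from -0.15 to 3.33 with the normal line left in.

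The rest of the pathway was described over 52 further genes in 7 lists. In the hypoxia fit with the block, 51 of them were tested, and 22 were higher and 29 lower, with a median log2 fold change of -0.12. Of these, 2 passed the threshold in edgeR. Over all 21045 genes tested in this fit, 10995 were higher and 10050 lower (median 0.03), and 200 (0.950%) passed the threshold. Of 10 other BCL2 family genes tested, 6 were higher and 4 lower, and edgeR called 1. This was BCL2L15, a little-studied relative, at 1.51 (SE 0.27, adjusted p = 0.0473). It went from 13.3 to 36.6 CPM in DLD1 and from 4.39 to 14.8 CPM in HCT8, with 14 and 25 counts in HCT116. Its log2 fold change was 1.49 without DLD1 (adjusted p = 0.206) and 1.35 without HCT8 (adjusted p = 0.445), where it was no longer called. HRK, a BH3-only gene, had the lowest fitted value (-1.93, SE 0.53, adjusted p = 0.121 in edgeR), with 446 and 61 counts in HCT116 and at most 14 counts in any library of DLD1 and HCT8. DESeq2 with the same block called HRK too (-1.89, adjusted p = 0.0299), beside BCL2L15. All 6 transcription factors known to act on BH3-only genes were tested, with 2 higher and 4 lower and 1 called. ATF4, the factor of the integrated stress response, fell by 0.99 on the log2 scale (SE 0.17, adjusted p = 0.0420), from 950.7 to 476.2 CPM in DLD1, from 734.3 to 290.4 in HCT116 and from 742.7 to 363.7 in HCT8. Its call too was lost without DLD1 (log2 fold change -0.9975, adjusted p = 0.112) and without HCT8 (-0.97, adjusted p = 0.445). FOXO3 was at 0.79 (SE 0.25, adjusted p = 0.155) and E2F1 at -1.13 (SE 0.38, adjusted p = 0.175).

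In edgeR with the block no gene of the other 5 lists was called. DESeq2 with the block called 2, both lower and named here after their values were seen. These were CYCS (cytochrome c, -0.80, adjusted p = 0.00277) and CASP2 (-0.60, adjusted p = 0.0199). Over all genes with an adjusted p, that tool called 1666 of 15333 (10.9%). The median log2 fold change over all genes tested was 0.03 in edgeR with the block. Among the caspases 2 were higher and 5 lower (median -0.44), in the death receptor pathway 1 and 7 (median -0.29), in mitochondrial release and the apoptosome 4 and 5 (median -0.13), in the IAP family 5 and 2 (median 0.21), and among the genes of MCL1 turnover 2 and 2 (median 0.08). BIRC3, an IAP that acts in NF-κB signaling, was at 1.08 (SE 0.39, adjusted p = 0.196), with a ratio of 3.61 in HCT116 against 1.19 in DLD1 and 1.70 in HCT8. Between CRC and normal lines, 49 pathway genes were tested, 18 were higher and 31 lower, and none was called, with 3 at an unadjusted p under 0.05. Over all 19964 genes tested there, 9928 were higher and 10036 lower, and 542 had an unadjusted p under 0.05 (edgeR). The highest fitted log2 fold changes were BCL2L15 (5.29, SE 1.94), CASP10 (1.30, SE 0.83) and TP73 (1.27, SE 1.13), and the lowest were BIRC3 (-1.55, SE 0.56), TNFRSF1A (-1.26, SE 0.39) and ENDOG (-1.25, SE 0.49), all with an adjusted p of 0.999. BCL2L15 in HCT116 (0.268 CPM) was close to the normal lines (0.061 and 0.194 CPM), so its value rested on DLD1 and HCT8.

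For the 3 members that varied most over the 8 libraries, the genes of most similar pattern were found among 14977 genes by the root mean square difference of centred log2(CPM + 1) values. For PMAIP1 these were CYP27B1 (difference 0.400), LOC101928096 (0.461) and CCNJ (0.475). CYP27B1, which encodes the enzyme that activates vitamin D, had 9.35 CPM in NCM460, 1.57 in HIEC6, 11.3 in HCT116 and 1.16 in HCT8 under hypoxia. For BCL2 the nearest were ZNF738 (0.475), NAT8L (0.517) and ADGRB2 (0.543). BIK had closer neighbours, LOC101930275 (0.220), B3GNT3 (0.231) and ILDR1 (0.263), and ILDR1, a gene of tricellular junctions, had 0.0705 CPM in HIEC6 and 4.50 to 11.8 CPM elsewhere. The pattern of BIK was that of genes low in HIEC6, and the 8 points share 5 lines.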

How the data were processed

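Total RNA of 8 libraries was sequenced after removal of ribosomal RNA. The authors deposited 1 table of raw counts per gene, without normalization. The study's methods name GRCh37.p13, while the submitters' processing notes list HISAT2 2.0.4 and GRCh38, so the build of the counts is not certain. The counter, the annotation and the strand setting are not given in the sources used here. All 8 columns were used, and groups and lines came from the sample labels. The members and gene lists were chosen with earlier results of these data known.

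CPM was computed from column totals, and levels per kilobase from the exon union of GENCODE release 44 lifted to GRCh37. Tests used edgeR 4.0.16 (quasi-likelihood, TMM, Benjamini-Hochberg, threshold 0.05) in R 4.3.3, after genes without 10 counts in at least 2 libraries had been removed. The replicate number is the cell line in the hypoxia comparison, so it pairs the samples: deviations from group means correlated at 0.873, 0.870 and 0.865 within lines and at -0.62 to -0.0979 between lines. Standard errors are the fold change over the root of F. Intervals of ratios are exact (Clopper-Pearson, SciPy 1.17.1) and cover counting error only. The p-values of fits without the block measure the spread between lines. Those of fits with the block measure the spread that remains after each line's own level is taken out. Alternatives were DESeq2 1.42.0, limma-trend (limma 3.58.1), other size factors and filters, the block, and each library left out. Named pathway genes are those past the threshold and up to 3 per direction with the largest fold change and a mean of at least 1 CPM. CPM scaled by the TMM factors and canonical transcript lengths were alternatives chosen after seeing the data. The fits were tested on simulated counts that had less spread than the data. The coefficient of variation fitted to the data for hypoxia was 0.876 without the block and 0.295 with it. For CRC against normal it was 0.868. The simulation therefore does not show how the fits behave at the spread of these data.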

Additional observations from a re-analysis of the deposited data

Results flagged for a closer look

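BCL2L2 and BIK went in opposite directions in different lines under hypoxia, each beyond the counting interval of its ratio. The log2 ratio of BCL2L2 was 0.37 in HCT8 and -0.27 in DLD1, and that of BIK was 0.37 in DLD1 and -0.77 in HCT116. Each line has 1 pair of libraries, so the difference between lines was not tested.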

How the results depend on the processing

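Without the block no gene and no member was called for hypoxia (0), under edgeR; DESeq2 called 55 genes without the block. With the replicate block the counts of genes and members called were 200 and 1, with DESeq2 added 1666 and 2, with upper-quartile factors 215 and 1, with library totals 172 and 1, and with at least 10 counts in every library 165 and 1. With the block and 1 line left out, the counts ran from 6 to 738 genes and from 0 to 3 members, with 6 genes without HCT8, 292 without DLD1 and 738 without HCT116. Between CRC and normal lines DESeq2 called 143 genes and 0 members; there a shared number joins different lines, and the block moved BCL2 to -1.02, while limma-trend gave -0.18.

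BAK1, BID, BCL2 and BMF kept their sign for hypoxia in all 22 alternatives, and MCL1, BAK1 and BMF in all 14 for CRC against normal. With the block and library totals BIK was at -0.0857 for hypoxia. With 1 library left out and no block, log2 fold changes for hypoxia ran from -0.37 to 0.47 for BIK, -0.11 to 0.66 for BCL2L1, -0.0761 to 0.3083 for BCL2L2 and -1.42 to 0.0617 for PMAIP1. With the block and DLD1 left out, BIK was at -0.1361 and MCL1 at 0.0035. For CRC against normal they ran from -0.99 to 1.45 for BCL2, -0.11 to 0.70 for BCL2L1, -0.0186 to 0.2435 for BCL2L2, -0.13 to 0.67 for BID, -0.15 to 3.33 for BIK and -0.45 to 1.76 for PMAIP1. The cause of these shifts was not tested. The 9 members tested had at least 28 counts in every library, and BCL2A1 had at most 4.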
